A study of Homo sapiens with 6 samples.

Results

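The genes described here are the Hippo pathway kinases, YAP and TEAD factors and their closest partners in SKBR3 cells, 10 genes chosen by name: LATS1, LATS2, YAP1, WWTR1, TEAD1, TEAD4, AMOTL1, AMOTL2, AJUBA and ANKRD1. The expression table holds 54644 gene loci, and 9 of the 10 passed the filter on low counts. SKBR3 is a HER2-positive human breast cancer cell line, and the study compared SKBR3 cells stably infected with the empty lentiviral vector pLVX (control, 3 libraries) with SKBR3 cells infected with pLVX carrying the cDNA of CTTN (3 libraries). CTTN encodes cortactin, a protein that binds branched actin filaments, and its overexpression was studied as a source of stem cell-like traits and of resistance to trastuzumab. Both groups were selected with puromycin and carry the same vector backbone, and nothing in the labels says that the 3 libraries of a group came from separate infections or cultures. P-values therefore measure only the spread between these libraries, which may be technical. RNA levels in bulk libraries cannot tell fewer cells of a kind from less RNA per cell.

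The Hippo pathway is a kinase cascade that restrains growth and responds to cell contact, cell shape and tension in the actin cytoskeleton. The MST kinases (STK3 and STK4) with their scaffold SAV1 activate the LATS kinases with their MOB1 cofactors, and LATS phosphorylates the coactivators YAP (gene YAP1) and TAZ (gene WWTR1), which are then held in the cytoplasm or degraded. Unphosphorylated YAP and TAZ enter the nucleus and bind TEAD transcription factors on promoters and enhancers that hold the motif GGAATG. Angiomotin-like proteins hold YAP and TAZ at junctions and actin filaments, LIM proteins such as Ajuba inhibit LATS, and ANKRD1, AMOTL2 and AJUBA are also used as readouts of YAP and TEAD activity. Because this control acts mainly by phosphorylation and location of the proteins, RNA levels show how much messenger RNA of each component was present, not how active the pathway was.

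The promoters of 8 of the 10 genes were found in the RefSeq table (12 windows of 250 bases directly before a transcription start, GRCh38.p14), and TEAD1 and TEAD4 were not among them. The motif GGAATG, searched on both strands, occurred in 4 of these 12 windows, in 1 window each of ANKRD1, YAP1, AMOTL2 and AJUBA, against 11.9% of the 35116 promoter windows of the table. The 4 windows are shown because, among the windows searched, they held the exact motif close to a start. AJUBA and AMOTL2 each had another window, before a start farther upstream, that did not hold it. The ANKRD1 window held the motif at 220 and 128 bases before the start, and 0.940% of all windows held it more than once. In the YAP1 window it lay 162 bases, in the AMOTL2 window 69 bases and in the AJUBA window 59 bases before the start. A match of letters does not show binding. The sequences read 5′ to 3′ in the direction of transcription, with the motif in capitals (CATTCC where it lay on the opposite strand).
ANKRD1 promoter, chr10:90921088-90921337, minus strand: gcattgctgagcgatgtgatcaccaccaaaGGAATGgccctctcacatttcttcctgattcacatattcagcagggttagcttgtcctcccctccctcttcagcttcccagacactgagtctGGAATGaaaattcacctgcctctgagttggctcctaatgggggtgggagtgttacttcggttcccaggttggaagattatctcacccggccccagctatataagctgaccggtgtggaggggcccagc
YAP1 promoter, chr11:102110197-102110446, plus strand: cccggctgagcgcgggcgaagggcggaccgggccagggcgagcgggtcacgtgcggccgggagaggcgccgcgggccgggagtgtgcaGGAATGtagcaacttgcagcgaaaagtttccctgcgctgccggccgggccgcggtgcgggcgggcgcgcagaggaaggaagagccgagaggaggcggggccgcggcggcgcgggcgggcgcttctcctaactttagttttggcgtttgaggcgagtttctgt
AMOTL2 promoter, chr3:134374448-134374697, minus strand: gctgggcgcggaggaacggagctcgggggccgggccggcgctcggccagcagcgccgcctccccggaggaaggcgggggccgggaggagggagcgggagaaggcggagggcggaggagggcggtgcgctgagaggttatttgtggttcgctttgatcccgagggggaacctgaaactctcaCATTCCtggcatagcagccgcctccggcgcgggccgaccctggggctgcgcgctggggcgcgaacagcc
AJUBA promoter, chr14:22976843-22977092, minus strand: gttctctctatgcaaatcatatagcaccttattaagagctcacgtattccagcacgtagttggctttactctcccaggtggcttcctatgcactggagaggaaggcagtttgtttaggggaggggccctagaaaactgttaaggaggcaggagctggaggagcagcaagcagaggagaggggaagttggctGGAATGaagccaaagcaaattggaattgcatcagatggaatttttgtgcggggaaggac

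The libraries held between 34887181 and 41279835 fragments assigned to genes. Levels are given below as CPM, counts set relative to the library total after scaling by trimmed means, for comparing 1 gene between libraries, and as FPKM, which divides by transcript length, for comparing genes with each other. CTTN itself was at 299, 307 and 306 CPM in the control libraries 1, 2 and 3 and at 793, 1011 and 520 CPM in the CTTN libraries 1, 2 and 3, a log2 difference of 1.35 (SE 0.22, edgeR adjusted p = 0.0249). The difference ran from 1.10 to 1.57 over 16 alternative fits, and its call was lost in 5 of them, with a replicate block, without CTTN library 1 and without any 1 control library (adjusted p up to 0.154). All 3 labelled CTTN libraries stood above all controls. Of 9 markers of luminal and HER2-positive epithelium, 7 were at 1 FPKM or more, ERBB2 among them, and CDH1 and ESR1 were below 1 FPKM in every library. The summed level of these markers was 6762 to 6977 FPKM in the controls and 6262 to 9470 FPKM in the CTTN libraries. Markers of other cell types summed far lower. Those of basal or mesenchymal cells (2 of 7 at 1 FPKM or more, TP63 and FN1, with ZEB1 at 0 in every library) summed to 7.71 to 9.19 FPKM in the controls against 8.80 to 9.55 FPKM. Those of fibroblasts (1 of 6, COL1A1) summed to 3.51 to 4.44 against 2.94 to 4.30 FPKM, and those of leukocytes (1 of 4, CD68) to 3.94 to 4.77 against 2.93 to 4.22 FPKM. Those of endothelium (1 of 3, CDH5) summed to 4.12 to 4.62 against 1.55 to 2.17 FPKM, lower in every CTTN library. In the controls FN1 (5.38 to 6.99 FPKM) and CDH5 (3.96 to 4.45 FPKM) were about as high as the LATS kinases given below. The part of any of these markers in the results was not tested.

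The CTTN libraries differed among themselves in a way that touched these genes. The 3 control libraries correlated at 0.995 to 0.996 across genes, and the CTTN libraries at 0.976 to 0.991. The genes tested were split into 5 bins of equal size by transcript length. In CTTN library 3, the shortest bin (up to 1347 bases) had a median log2 level of 0.66 against the control mean, and the longest bin (3975 bases or more) had a median of -0.62. In CTTN library 1 the same medians were 0.30 and -0.31, and in CTTN library 2 they were 0.02 and -0.01. The control libraries stayed within 0.055 of 0 in both bins. Of the 9 rows tested, 7 were in the longest bin (WWTR1, YAP1, LATS2, TEAD1, LATS1, AMOTL1 and AMOTL2). AJUBA was counted in 1 row with its neighbour HAUS4, and that row was placed at 2649 bases, its mean over both genes' transcripts, although the main AJUBA transcript, ENST00000262713, has 4262 bases and would lie in the longest bin. The value of each row with this length trend removed is given beside its result below.

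In control cells the 10 genes covered a wide range of levels. TEAD4 was highest at 37.4 FPKM (34.9, 37.8 and 39.6 in control libraries 1, 2 and 3), followed by AMOTL2 at 31.2, AJUBA at 29.6 and YAP1 at 26.4 FPKM. Then came TEAD1 at 21.2, AMOTL1 at 11.2 and WWTR1 at 10.6 FPKM, and the LATS kinases at 5.25 (LATS1) and 3.94 FPKM (LATS2). AMOTL1, at 10.2, 11.6 and 11.8 FPKM, and WWTR1, at 10.6, 10.7 and 10.6 FPKM, overlapped between libraries and were the only neighbours in this order whose control ranges did. ANKRD1 was near absence, at 0.013 to 0.069 FPKM in the 6 libraries. Of the coactivators YAP1 thus stood above WWTR1 (log2 ratio of their FPKM 1.31 ± 0.05, SD, n = 3), and of the TEAD factors TEAD4 carried 43.0% ± 1.5 (SD, n = 3) of the summed TEAD FPKM in control cells, TEAD1 24.3% ± 1.5, TEAD2 20.5% ± 2.5 and TEAD3 12.2% ± 0.2.

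**Figure D1:**
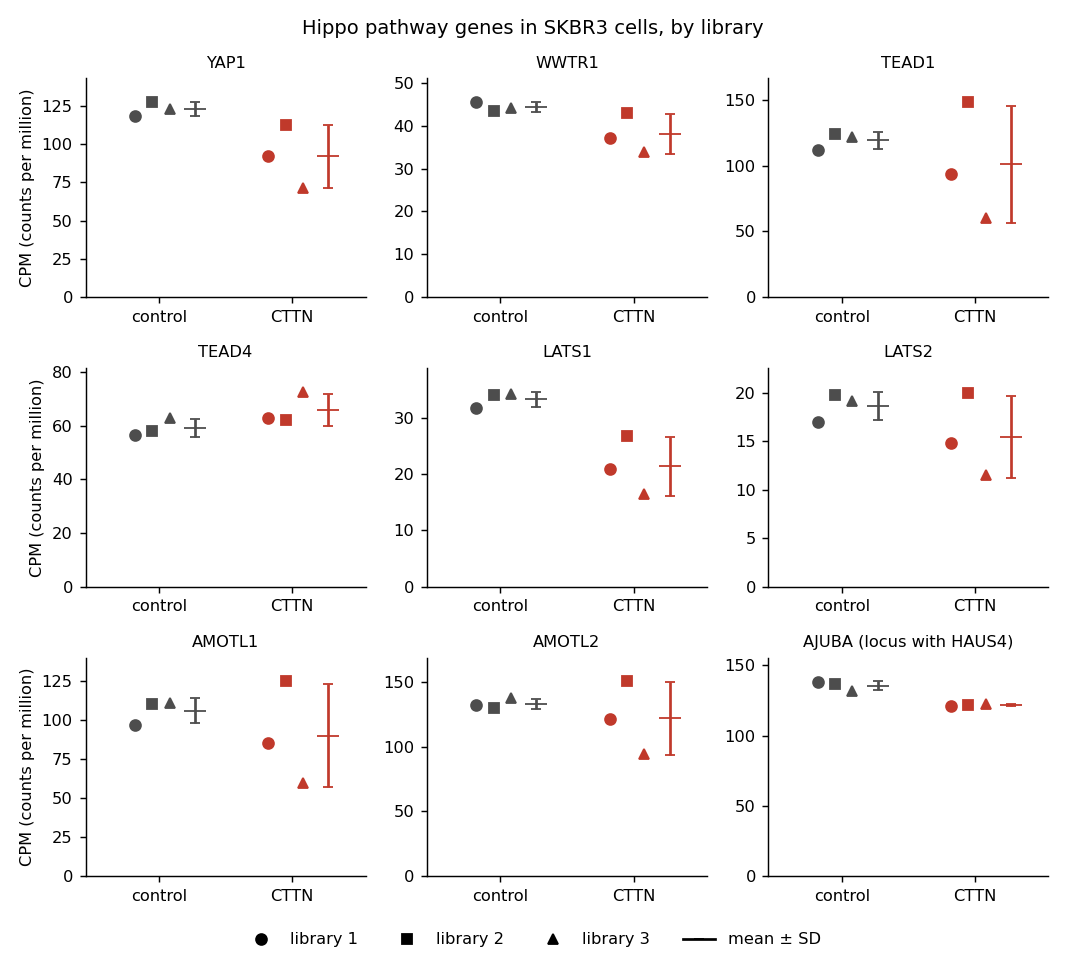
CPM of the 9 genes that passed the filter, in the 3 control and the 3 CTTN libraries (points) with the mean and SD of each group (bars). For YAP1, WWTR1, LATS1 and AJUBA all 3 CTTN libraries lay below all controls, and for the 7 genes whose row was in the longest-transcript bin CTTN library 3 was the lowest point.

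Of the 9 genes tested, none was called at an adjusted p under 0.05 by edgeR in either direction, where 2.29% of all 14433 genes tested were called higher and 1.91% lower in CTTN cells (4.2% in all). With the additional requirement of a 1.5-fold change these shares were 1.76% and 1.44%. At an unadjusted p under 0.05 there were 2 of the 9, LATS1 and YAP1, against 30.2% of all genes, and DESeq2 called 1, LATS1, as lower, against 6.56% of all genes. The log2 fold change lay below 0 for 8 of the 9 genes, against 49.3% of all genes, with a median of -0.24 against 0.01 over all genes. With the length trend removed, WWTR1, TEAD1, LATS2, AMOTL1 and AMOTL2 lay above 0 instead, and TEAD4 lay below 0. In 4 of the 9 (LATS1, YAP1, WWTR1 and AJUBA) every CTTN library was below every control library, against 19.4% of all genes, and in 0 of the 9 every CTTN library was above, against 19.3%.

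These counts depended on which CTTN library was included. Without CTTN library 2, the library with no length trend, 7 of the 9 genes were called lower, against 24.2% of all genes: LATS1 (-0.84), TEAD1 (-0.63), YAP1 (-0.60), AMOTL1 (-0.56), LATS2 (-0.51), WWTR1 (-0.33) and AMOTL2 (-0.31). Without CTTN library 3, the library with the strongest length trend, only LATS1 was called lower (-0.48, adjusted p = 0.035), against 3.99% of all genes. With the length trend of each library removed, LATS1 was called lower (-0.24, adjusted p = 0.026), against 8.59% of all genes, and AMOTL1 was called higher (0.19, adjusted p = 0.0447), against 9.82%.

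LATS1, 1 of the 2 kinases that phosphorylate YAP and TAZ, showed the largest decrease in value among the 9 genes. Its locus (chr6:149658153-149718888) gave 31.6, 34.0 and 34.1 CPM in the controls and 20.8, 26.7 and 16.5 CPM in the CTTN libraries 1, 2 and 3. All 3 CTTN libraries lay below the lowest control, CTTN library 2 nearest to it and CTTN library 3 farthest. The log2 fold change was -0.64 (SE 0.17, 95% interval -1.04 to -0.24), and its adjusted p of 0.0785 missed the threshold in the edgeR fit. Against the control mean, its log2 level was -0.67, -0.31 and -1.01 in CTTN libraries 1, 2 and 3, and with the length trend removed the log2 fold change was -0.24. Over the 16 alternative fits its log2 fold change ran from -0.84 to -0.24, always below 0, and it passed the threshold in 4 of them.

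LATS2, the paralogous kinase, differed less. It gave 17.0, 19.8 and 19.2 CPM in the controls and 14.86, 20.001 and 11.52 CPM in the CTTN libraries, so that CTTN library 2 was above all controls while the other two were below them. Its log2 fold change was -0.27 (95% interval -0.73 to 0.18, adjusted p = 0.339), and with the length trend removed it was 0.0037. The log2 ratio of LATS1 to LATS2 FPKM was 0.42 ± 0.12 in control and 0.01 ± 0.16 in CTTN libraries (SD, n = 3 each). The 2 groups did not overlap, and the two-sided exact permutation test gave p = 0.1, the smallest that 3 against 3 libraries allow (adjusted p = 0.4 over the 8 ratios and shares computed).

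Of the coactivators, YAP1 (chr11:102110461-102233423) gave 118.4, 127.6 and 123.1 CPM in the controls and 92.2, 112.7 and 71.1 CPM in the CTTN libraries. The groups did not overlap, and the log2 fold change was -0.42 (SE 0.16, 95% interval -0.79 to -0.04), with an edgeR adjusted p of 0.141. Over the alternatives it ran from -0.60 to -0.14 and kept its sign, at -0.14 with the length trend removed and at -0.26 without CTTN library 3, and it was called in 1 of 16, the fit without CTTN library 2. WWTR1 (chr3:149517235-149736714), which encodes TAZ, gave 45.59, 43.54 and 44.04 CPM in the controls and 37.2, 43.1 and 33.9 CPM in the CTTN libraries. CTTN library 2 came within 0.5 CPM of the lowest control, and the log2 fold change was -0.22 (95% interval -0.47 to 0.03, adjusted p = 0.194). With the length trend removed WWTR1 was at 0.051 (adjusted p = 0.62), on the other side of 0. The log2 ratio of YAP1 to WWTR1 was 1.10 ± 0.11 in CTTN libraries, below the control value with no overlap (two-sided exact permutation test, p = 0.1, adjusted p = 0.4, n = 3 each).

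The TEAD factors went different ways in value. TEAD1 (chr11:12674591-12944483) gave 112, 124 and 121 CPM in the controls and 93.9, 148 and 60.5 CPM in the CTTN libraries. It was highest of all in CTTN library 2 and lowest of all in CTTN library 3, and its log2 fold change of -0.24 had a 95% interval from -0.92 to 0.43 (adjusted p = 0.562). With the length trend removed it was 0.094 (adjusted p = 0.565). TEAD4 (chr12:2959330-3040673), the shortest of the 9 transcripts, gave 56.6, 58.1 and 62.7 CPM in the controls and 63.0, 62.0 and 72.8 CPM in the CTTN libraries. It was the only 1 of the 9 genes with a value above 0, at 0.16 (95% interval -0.07 to 0.38, adjusted p = 0.277), and with the length trend removed it was -0.026. TEAD4 made up 46.7% ± 7.3 of the TEAD FPKM in CTTN libraries and TEAD1 17.0% ± 9.6 (SD, n = 3), spreads that overlapped the control shares (two-sided exact permutation tests, p = 0.6 and p = 0.4, adjusted p = 0.6 and 0.533).

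Of the proteins that tether YAP and TAZ, AMOTL1 (chr11:94543840-94925521) gave 96.5, 110.5 and 111.1 CPM in the controls and 85.2, 124.8 and 59.6 CPM in the CTTN libraries. AMOTL2 (chr3:134351852-134375479, a locus whose counts include the pseudogene RPL39P5) gave 132.0, 129.7 and 137.2 CPM against 120.8, 150.4 and 94.0 CPM. Both were highest in CTTN library 2 and lowest in CTTN library 3. Their log2 fold changes were -0.24 (95% interval -0.81 to 0.33, adjusted p = 0.499) for AMOTL1 and -0.13 (95% interval -0.51 to 0.25, adjusted p = 0.588) for AMOTL2. Both changed sign once the length trend was removed, to 0.19 for AMOTL1 (adjusted p = 0.0447) and 0.075 for AMOTL2 (adjusted p = 0.444).

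AJUBA, which encodes a LIM protein that inhibits LATS, was counted in 1 locus with its neighbour HAUS4, a microRNA and an unnamed transcript (chr14:22929609-22982642), and AJUBA transcripts held 69.7% of that locus's control counts. The locus gave 137.8, 136.8 and 131.7 CPM in the controls and 121.3, 121.5 and 122.7 CPM in the CTTN libraries, a log2 fold change of -0.15 (95% interval -0.32 to 0.01, adjusted p = 0.185), and -0.13 with the length trend removed (adjusted p = 0.0783), a correction made for the whole locus at 2649 bases. Taken alone, the AJUBA transcripts gave 94.4, 95.2 and 93.7 CPM in the controls and 74.3, 80.0 and 68.5 CPM in the CTTN libraries. All 3 CTTN libraries were below the controls by both counts, and for the AJUBA transcripts the log2 fold change was -0.35 (SE 0.08, adjusted p = 0.0762), which was not corrected for the length trend. ANKRD1 (chr10:90912096-90921276), whose promoter held the TEAD motif more than once, had deposited counts of 4.1, 1.7 and 3.8 in the controls and 2.1, 0.98 and 5.5 in the CTTN libraries, and it was not tested. Its counts were near the 3 counts that an observed 0 would still allow, too few to show a decrease at this depth.

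**Figure D2:**
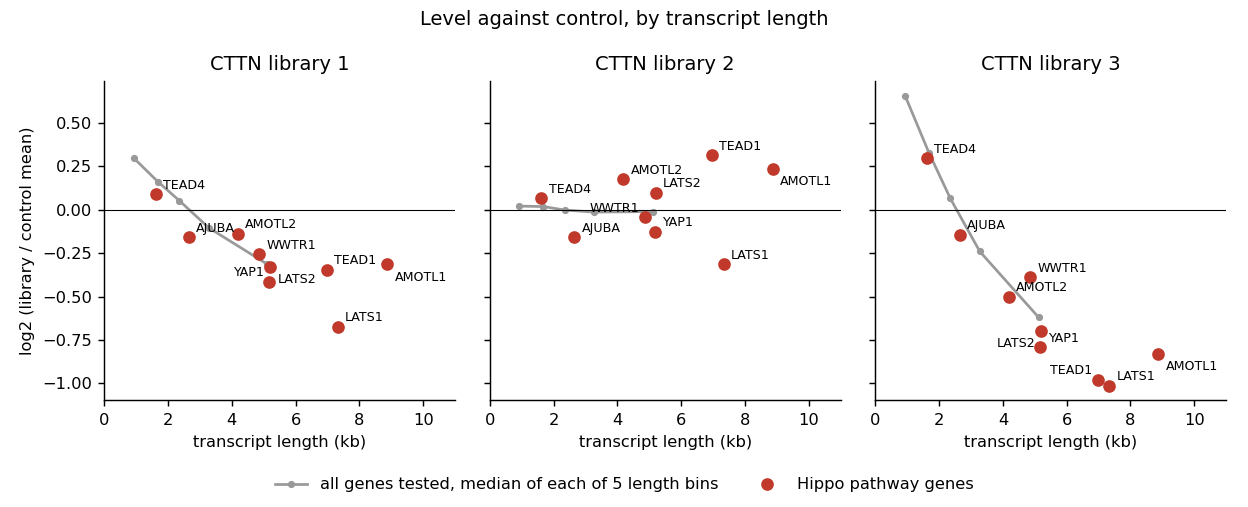
Log2 level against the control mean (vertical) by transcript length in kilobases (horizontal) for the 9 genes (red points) in each CTTN library, with the median of all genes tested in each of 5 length bins (grey line). In CTTN libraries 1 and 3 the longer transcripts lay lower, and in CTTN library 2, where the line is flat, 4 of the 9 were below the control mean. AJUBA is plotted at the 2649 bases of its merged locus.

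Set against their length, the 9 genes showed how far the CTTN libraries stood apart. Below the control mean were 8 of the 9 in CTTN library 1, 4 in CTTN library 2 and 8 in CTTN library 3, with median log2 levels of -0.32, 0.07 and -0.70. Across the 9 genes, which share their libraries, Spearman's rho between transcript length and this level was -0.77, 0.25 and -0.92 in CTTN libraries 1, 2 and 3. In control libraries 1, 2 and 3 it was -0.72, 0.70 and 0.10, so the rho of CTTN library 1 was close to that of a control. The median log2 levels of these controls were -0.06, 0.03 and 0.04. The rho values are given as a description, with AJUBA entered by the counts and the 2649 bases of its merged locus. LATS1 (7330 bases) lay below the median of the longest bin in each of the 3 libraries, and it was the lowest of the 9 in each. The part of the length trend in the level of any 1 gene was not tested.

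**Figure D3:**
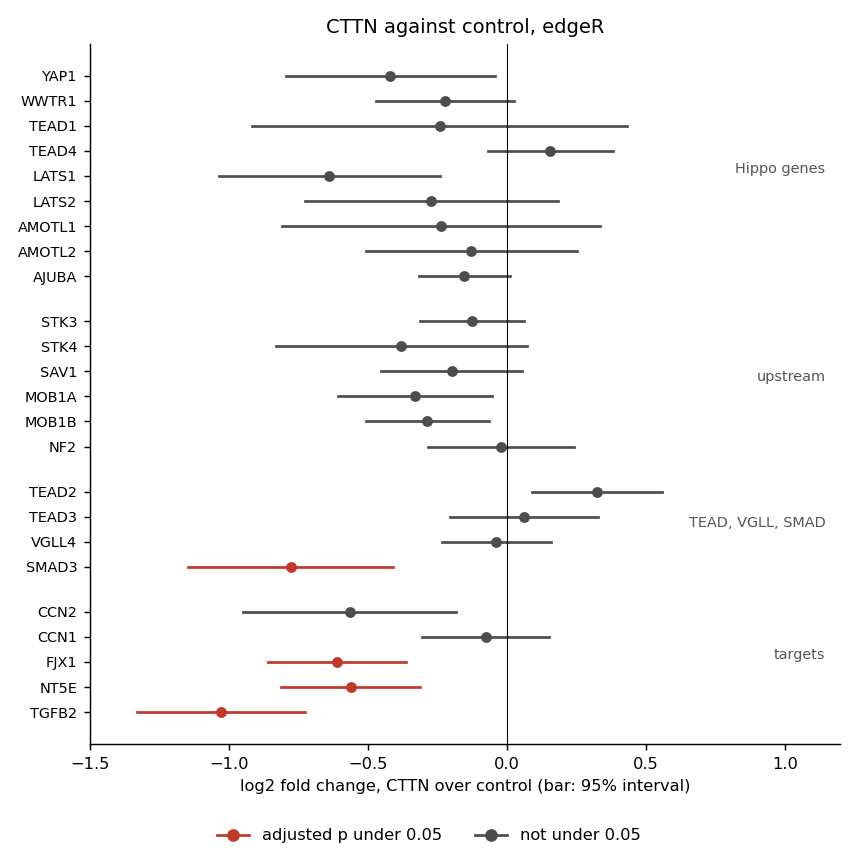
Log2 fold change of CTTN over control with its 95% interval from the edgeR fit, for the 9 tested genes and for the pathway genes fixed for naming or called from each list. The called genes (red) are SMAD3, FJX1, NT5E and TGFB2, all below 0. In the top block, the intervals of LATS1 and YAP1 lie below 0 and those of the other 7 genes include it.

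Regulators of the core genes were measured with a list of 41, of which 38 were tested. Most act upstream of LATS, while others act on YAP and TAZ directly, such as AMOT, PTPN14 and TP53BP2, which bind them, and CSNK1D, CSNK1E and BTRC, which act on YAP after LATS. PTPN14 is also in the list of targets given below. None was called in either direction, against 2.29% and 1.91% of all genes, the lowest adjusted p being 0.0702, and 8 of 38 had an unadjusted p under 0.05, against 30.2% of all genes. Their median log2 fold change was -0.26, with 30 of 38 below 0, against 0.01 and 49.3% over all genes. In 13 every CTTN library was below every control and in 4 above, against 19.4% and 19.3% of all genes. The MST kinases STK3 and STK4 were at -0.12 (adjusted p = 0.294) and -0.38 (adjusted p = 0.213), and their scaffold SAV1 was at -0.20 (adjusted p = 0.235). The LATS cofactors MOB1A and MOB1B, the latter counted together with DCK, were at -0.33 (adjusted p = 0.128) and -0.29 (adjusted p = 0.114). MOB1B transcripts held 37.4% of that locus's control counts, and taken alone they were at -0.39 (adjusted p = 0.0895). NF2, which encodes Merlin and recruits LATS to the membrane, was at -0.02 (adjusted p = 0.903), but with the length trend removed it was at 0.32 and called higher (adjusted p = 0.0222). Removal of that trend left STK4 at -0.072, SAV1 at -0.10, MOB1A at -0.093 and the MOB1B locus at -0.15, none of them called. Without CTTN library 2, 22 of the list were called lower and 1 higher, against 24.2% and 23% of all genes.

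Among 11 further partners of YAP and TEAD in transcription, 7 were tested, with 0 called higher and 1 lower, against 2.29% and 1.91% of all genes, and a median of -0.04. TEAD2 gave 42.8, 36.6 and 37.2 CPM in the controls and 48.3, 45.6 and 52.1 CPM in the CTTN libraries. All CTTN libraries were above the controls, with a log2 fold change of 0.32 and an adjusted p of 0.101. TEAD2 was called higher in 2 of 16 alternatives, with the length trend removed (0.24, adjusted p = 0.0386) and without CTTN library 2 (0.36, adjusted p = 0.0144). TEAD3 was at 0.06 (adjusted p = 0.717) and VGLL4, a repressor that competes with YAP for TEAD, at -0.04 (adjusted p = 0.759), or 0.097 with the length trend removed. SMAD3, a transcription factor of TGF-beta signalling that TAZ and YAP bind, fell from 53.8, 48.6 and 50.1 CPM to 29.2, 36.3 and 23.5 CPM (-0.78, SE 0.16, edgeR adjusted p = 0.0438). SMAD3 was below 0 in all 16 alternatives but called in only 7 of them, with an adjusted p of up to 0.192, and the call was lost with the replicate block (0.086), without scaling factors (0.0636), with own transcripts (0.0549), by both limma fits and without CTTN library 1 or any 1 control library.

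Of 19 genes often used as targets of YAP and TEAD, 16 were tested, 0 were called higher and 3 lower, against 2.29% and 1.91% of all genes. Their median log2 fold change was -0.49, with 14 of 16 below 0, against 0.01 and 49.3% over all genes. In 7 of the 16 every CTTN library was below every control and in 1 above, against 19.4% and 19.3% of all genes. TGFB2, a TGF-beta ligand (locus counted with TGFB2-OT1), fell from 24.7, 27.5 and 26.2 CPM in the controls to 12.7, 14.9 and 10.9 CPM in the CTTN libraries (-1.03, SE 0.13, edgeR adjusted p = 0.0106). Taken alone, the TGFB2 transcripts, which held 99.4% of the locus's control counts, were at -1.21 (adjusted p = 0.043). FJX1, a secreted protein related to Drosophila four-jointed, fell from 8.42, 8.63 and 9.11 CPM to 5.67, 5.28 and 6.16 CPM (-0.61, adjusted p = 0.028). NT5E, the ecto-nucleotidase CD73, fell from 17.6, 18.9 and 18.8 CPM to 13.0, 13.6 and 10.9 CPM (-0.56, adjusted p = 0.037). For each of these 3 genes and for SMAD3, which were named because they were called on the same values, all CTTN libraries, CTTN library 2 included, were below all controls. With the length trend removed they remained called, at -0.84 (TGFB2), -0.64 (FJX1), -0.54 (NT5E) and -0.47 (SMAD3). Over the 16 alternatives TGFB2 was called in 10, FJX1 in 9 and NT5E in 8, with an adjusted p of up to 0.117, 0.160 and 0.202. The calls of FJX1 and NT5E were lost with the replicate block. The best known targets did not pass the test in the edgeR fit of all libraries. CCN2 (CTGF) gave 6.52, 8.03 and 7.42 CPM against 4.34, 4.46 and 6.05 CPM (-0.57, adjusted p = 0.0903). It was called lower in 4 of 16 alternatives, by DESeq2 (-0.58, adjusted p = 0.0304), with the length trend removed (-0.60, adjusted p = 0.0238), without CTTN library 2 (-0.50, adjusted p = 0.0349) and without CTTN library 3 (-0.73, adjusted p = 0.0127). CCN1 (CYR61) was at -0.08 (adjusted p = 0.586) and was called in none of the 16. AXL was not tested, with 3.10 deposited counts in control library 1 and 0 in the other 5 libraries. Leaving out CTTN library 1 or any 1 control library left none of the targets and not SMAD3 called, as did limma on the FPKM of the locus (TGFB2 -0.54 or -0.47, adjusted p = 0.117), whereas 12 were called lower and 1 higher without CTTN library 2, against 24.2% and 23% of all genes, and 5 lower without CTTN library 3, against 3.99%.

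The start sites of the 10 genes were compared too, since a gene total can hide a change in 1 of them. Of 35916 start site groups tested, 0% were called by edgeR at an adjusted p under 0.05, although 3730 had an unadjusted p under 0.05. Start site usage, the mix of start sites within a gene, could be tested for 7 of the 10 genes and was called for 1, TEAD4 (edgeR adjusted p = 0.0168), against 0.646% of 8508 genes. In the other 6, which were YAP1, TEAD1, LATS1, LATS2, AMOTL2 and AJUBA, the edgeR adjusted p rounded to 1. These counts are estimates that divide reads among overlapping transcripts, which makes them uncertain.

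In TEAD4 the start that moved was a group of 2 transcripts led by ENST00000397122, which begins 520 bases downstream of the full-length ENST00000359864 in the GENCODE annotation and encodes 305 codons in place of 434. The group held 0.15%, 0.02% and 0.00% of the TEAD4 counts in control libraries 1, 2 and 3 and 3.12%, 1.28% and 21.4% in CTTN libraries 1, 2 and 3. All 3 CTTN libraries were above all controls, and CTTN library 3 carried most of the difference. The main start held 98.8%, 98.5% and 98.0% in the controls and 95.01%, 97.34% and 77.29% in the CTTN libraries. The call of TEAD4 was lost without CTTN library 3 (adjusted p = 0.0909), without CTTN library 1 (0.069) and without any 1 control library (0.105 to 0.212). It was also lost with the replicate block, and it stayed without CTTN library 2 (0.0018).

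**Figure D4:**
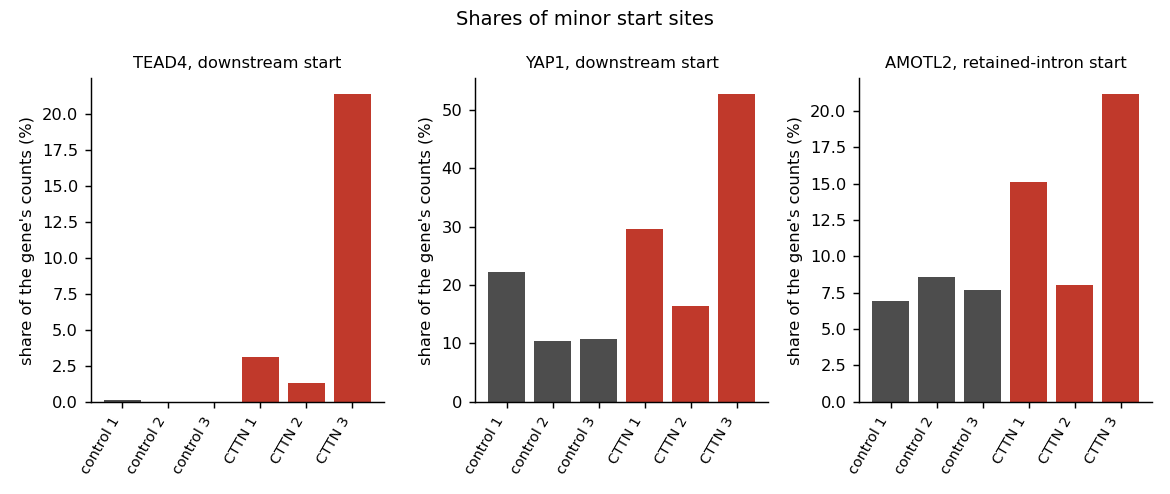
Share of each gene's estimated counts, in percent, at a minor start site of TEAD4, YAP1 and AMOTL2 in the 3 control (grey) and 3 CTTN (red) libraries. The highest bar of each panel is CTTN library 3, at 21.4%, 52.7% and 21.2%, and CTTN library 2 is the lowest of the 3 CTTN bars.

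At starts of YAP1, AMOTL2 and TEAD1 the shares in CTTN libraries 1 and 3 lay apart from the controls, without passing the test. In YAP1, the start site group of 2 transcripts led by ENST00000524575 (326 codons, against 504 in the full-length form, starting 2067 bases downstream) held 22.2%, 10.5% and 10.8% of the counts in the controls and 29.7%, 16.5% and 52.7% in the CTTN libraries. In AMOTL2, the start site group of the retained-intron transcript ENST00000506326 and 1 further transcript held 6.9%, 8.6% and 7.7% against 15.1%, 8.0% and 21.2%. In TEAD1, the start farthest upstream held 41.6%, 45.4% and 45.6% against 26.6%, 49.3% and 23.6%. In these 3 genes CTTN library 2 stayed within or near the control range, and CTTN libraries 1 and 3, the 2 with fewer long transcripts, departed from it. LATS1 did not show this order, as 1 of its starts held 15.7%, 0.02% and 15.6% in the controls and 28.8%, 0.01% and 0.39% in the CTTN libraries. A LATS2 start held 31.2%, 9.99% and 27.7% against 34.1%, 0.01% and 78.2%. There CTTN libraries 1 and 3 were also above all controls, but CTTN library 2 lay below all of them. Both starts already varied between control libraries. A minor start of AJUBA was at 3.4%, 1.6% and 2.8% against 5.3%, 1.3% and 4.3%, highest in CTTN library 1. Another start group listed under AJUBA held 0.00% in all controls and in CTTN libraries 1 and 2, but 7.60% in CTTN library 3. Its 207 counts there were not of transcripts named AJUBA alone. Among those, the main transcript ENST00000262713 held 95.7%, 97.5% and 96.1% in the controls and 94.2% in CTTN library 3. The part of the length trend in the start site shares was not tested.

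Across the 6 libraries, the genes whose log2(FPKM + 1) values ran closest to YAP1 were SETD5, GTF2I and SLC4A7 (Pearson's r 0.9999, 0.9999 and 0.9996), and those closest to WWTR1 were MFN1, ZDHHC23 and SOCS5 (0.9995, 0.9995 and 0.9989). These are descriptions over 6 libraries, 3 of which share a group and of which 2 share the length trend.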

How the data were processed

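PolyA RNA of 3 control and 3 CTTN libraries was sequenced on a NovaSeq6000. Per the labels and the study's methods, reads were trimmed (Trimmomatic in the processing notes, Cutadapt in the methods), aligned with STAR and quantified with Cufflinks. The authors deposited estimated counts, divided by 1 scale factor per library, and FPKM values for genes, start site groups and transcripts. The deposited positions matched RefSeq GRCh38.p14 for 10 of the 10 genes, although the methods name an earlier build. The CTTN columns carry replicate numbers that match the labels. The control columns could be matched only to the group, and they are numbered here as in the deposited library list.

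Here the counts were rounded and tested with edgeR 4.0.16 in R 4.3.3 (quasi-likelihood, filterByExpr, TMM), with Benjamini-Hochberg adjustment over all features tested and a threshold of 0.05. Start site usage was tested with diffSpliceDGE. The study's own fold threshold of 1.5 gave a second count. Alternatives were DESeq2 1.42.0, limma 3.58.1 on log2(FPKM + 1) or log2(FPKM + 0.1), other scaling, no filter, a replicate block, each library left out, and, chosen after seeing the data, removal of each library's length trend and own transcripts of merged loci. The scripts were tested on simulated data. Named were all 10 genes, CTTN, the defining genes of each list and up to 8 called genes per list. The genes and lists were chosen with earlier results of these data known. Same-numbered libraries were not treated as pairs in the main fit, since the control numbers are not settled. Promoters came from RefSeq GRCh38.p14 and transcript annotation from GENCODE. Counts on repeated or overlapping genes are uncertain, and the coding sequences' tables were not used.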

Additional observations from a re-analysis of the deposited data

How the results depend on the processing

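Of all values recomputed, 475 kept their direction and side of the threshold or, for counts, stayed within 1.5 times the main count. The call was lost in 41 and gained in 19, with the direction kept, 96 counts moved by more than 1.5 times or to or from 0, and 15 fold changes changed sign. Over all genes the main counts were 331 higher and 275 lower, and 254 and 208 with a 1.5-fold change. DESeq2 gave 970 and 922 (558 and 456), removal of the length trend 1418 and 1240 (409 and 364), limma on log2(FPKM + 0.1) 107 and 73 (102 and 68), and limma on log2(FPKM + 1) 106 and 79 (87 and 62). Leaving out 1 library gave 10 to 3394 higher and 5 to 3559 lower (10 to 1445 and 5 to 1686 with the fold), the highest without CTTN library 2 and the lowest without control library 2. The causes of these shifts were not tested.

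The counts of this paragraph stand against these shares of all genes. DESeq2 called 6.56% lower, the fit with the length trend removed called 9.82% higher and 8.59% lower, and the fit without CTTN library 2 called 23% higher and 24.2% lower. Of the Hippo genes, 1 was called lower by DESeq2, and 1 higher and 1 lower with the length trend removed. Leaving out 1 library gave 0 to 7 called lower and 0 higher. The list of regulators had 2 called lower by DESeq2 and 1 higher and 2 lower with the trend removed, and 0 to 22 lower and 0 to 1 higher with 1 library left out. The target list had 5 lower by DESeq2 and with the trend removed, 0 by either limma fit, and 0 to 12 lower and 0 to 1 higher with 1 library left out. The transcription list had 0 lower by either limma fit, without scaling factors and with own transcripts, 1 higher with the trend removed, and 0 to 2 lower and 0 to 1 higher with 1 library left out. Start site usage was called for 0 to 1 of the genes with 1 library left out. CTTN was called in 11 of 16 alternatives, its adjusted p running from 4.8e-07 to 0.154 and its log2 fold change from 1.10 to 1.57. The calls of CTTN were lost with the block, without CTTN library 1 and without any 1 control library.

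With the length trend removed, log2 fold changes that changed sign were AMOTL1 0.19, AMOTL2 0.075, LATS2 0.0037, TEAD1 0.094, WWTR1 0.051, TEAD4 -0.026, NF2 0.32 and VGLL4 0.097. With 1 library left out, those that crossed 0 ran from -0.31 to 0.029 for AMOTL2, -0.63 to 0.022 for TEAD1, -0.14 to 0.062 for NF2, -0.078 to 0.012 for VGLL4 and -0.035 to 0.15 for TEAD3, lowest without CTTN library 2 and highest without CTTN library 3. By limma NF2 was at 0.0096 (pseudocount 0.1) and 0.0089 (pseudocount 1).

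Same-numbered libraries did not deviate together (r = 0.03, 0.08 and -0.19 over 14433 genes). The control numbers are those of the library list, and the labels do not settle them. These values therefore cannot show whether control and CTTN samples were prepared as pairs. A fit with the replicate block gave 54 genes higher and 55 lower (54 and 55 with the fold), 1 target, 0 of the transcription list, 0 Hippo genes and 0 called for start site usage (TEAD4 adjusted p = 0.261).

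At these depths ANKRD1 and AXL had a few counts at most and were not compared.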
